A study of Mus musculus with 194 samples.

Results

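The loci described here are the genes of 6 transcription factors of upper-layer cortical neurons, Cux1, Cux2, Rorb, Pou3f1, Pou3f2 and Pou3f3. They were chosen by name and position, and each locus was taken as the gene body in the mouse genome build GRCm38 with 10 kb added on either side. They are 6 of 21631 protein-coding loci on chromosomes 1 to 19 and X in which calling-card insertions were counted. A calling card is a transposon that a transposase, carried into brain cells by a virus, leaves in the genome, so that each insertion marks a place the transposase reached in a living cell.

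Cux1 and Cux2 encode CUT-domain homeobox proteins that mark the upper layers of the cortex and shape dendrites and spines. Rorb encodes an orphan nuclear receptor that marks the input layer of sensory cortex. Pou3f1, Pou3f2 and Pou3f3 encode class III POU homeodomain proteins, and Pou3f2 and Pou3f3, also called Brn2 and Brn1, act together in making and placing upper-layer neurons and are used in neural progenitors as well. The piggyBac transposase, when not fused to another protein, inserts at TTAA with a preference for active enhancers, and when fused to a transcription factor it is drawn toward that factor's sites.

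The study deposited 47 tables of insertions, 1 for each of 46 mice in 11 groups and 1 for N2a, a mouse neuroblastoma cell line, in which 3 experiments are pooled. All mice received adeno-associated virus (AAV) at postnatal day 0 to 1, and insertions were read from the cortex of all groups but one. Most libraries read self-reporting transposons from RNA, with each cortex cut into 10 pieces indexed apart. Groups are called by their labels, and a label that ends in Neg is read as a mouse of that line without Cre.

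The C57bl6J mice (n = 2) received viruses that need no Cre. Syn1Cre (n = 6) and Syn1CreNeg (n = 6) belong to a line named for Syn1, a neuronal gene, and GFAPCre (n = 6) and GFAPCreNeg (n = 6) to one named for Gfap, an astrocyte gene. Syn1Cre_SP1_P10 (n = 3) and Syn1Cre_SP1_P28 (n = 4) are Syn1Cre mice whose labels add SP1, a broadly expressed zinc-finger factor that binds GC-rich sites near gene starts, and postnatal day 10 or 28. Rbp4Cre_TRAP (n = 4) is whole forebrain labelled TRAP, which stands for purification of ribosome-bound RNA, from a Cre line widely used for deep-layer projection neurons. Frontflip_GFAPCre (n = 3) and Frontflip_GFAPCreNeg (n = 3) carry a construct that the labels name and do not describe. BrokenHeart (n = 3) is an older transposon read from cortical DNA. The labels give neither the transposase nor the age of the groups other than the SP1 mice, and they do not say which cells of a Cre line in fact expressed Cre. Each numbered replicate was taken as 1 mouse, so p-values measure the spread between these samples.

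A table held between 2341 and 2186743 insertions. The Frontflip_GFAPCreNeg tables held 2341 to 9601 and entered no test, and the Syn1CreNeg tables held 97519 to 556145, so insertions were also recorded where no Cre is labelled. Summed insertions at 8 astrocyte loci were 587 to 1954 per 1000000 insertions of a table in Syn1Cre and 808 to 1647 in GFAPCre, and those at 8 interneuron loci were 635 to 799 in Syn1Cre and 118 to 175 in GFAPCre. In N2a the excitatory marker Neurod6 held no insertion, and the 6 excitatory loci together held 134 against 1419 to 1912 in Syn1Cre. Sequencing pools and groups cannot be told apart where no pool holds both groups of a pair. This is so between Syn1Cre and GFAPCre, between Syn1Cre and Syn1CreNeg, and between the SP1 mice and Syn1Cre. It is also so between Rbp4Cre_TRAP and either Syn1Cre or GFAPCre, between BrokenHeart and C57bl6J, and between Frontflip_GFAPCre and GFAPCre. The interaction described below takes in the pair of Syn1Cre and Syn1CreNeg.

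The starts of 4 loci are shown because insertions around them were compared between groups. Each sequence runs 5′ to 3′ on the strand of the gene, from 250 bases before to 50 bases after the annotated start, and was taken from RefSeq for build GRCm38.p6. Capitals mark the letters GGGCGG on either strand, so a site on the other strand reads CCGCCC. This is the core of the GC box, the element that SP1 is known to bind, and it occurs in 46.7% of the 21045 promoter windows of this length. Rorb, at chr19:19111147-19111446 on the minus strand, holds 2 sites. Pou3f3, at chr1:42695518-42695817 on the plus strand, holds 1 site. Pou3f2, at chr4:22488317-22488616 on the minus strand, holds 5 sites. Cux2, at chr5:122049802-122050101 on the minus strand, holds 0 sites, as do the second annotated starts of Cux2 and Rorb and the start of Cux1. Pou3f1 had no match among the windows used here.
Rorb: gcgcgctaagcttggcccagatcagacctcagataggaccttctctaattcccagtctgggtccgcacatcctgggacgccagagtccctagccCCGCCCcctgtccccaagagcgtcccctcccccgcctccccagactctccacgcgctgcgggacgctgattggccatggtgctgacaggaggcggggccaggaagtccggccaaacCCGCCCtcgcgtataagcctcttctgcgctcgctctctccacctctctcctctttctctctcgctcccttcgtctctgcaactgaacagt
Pou3f3: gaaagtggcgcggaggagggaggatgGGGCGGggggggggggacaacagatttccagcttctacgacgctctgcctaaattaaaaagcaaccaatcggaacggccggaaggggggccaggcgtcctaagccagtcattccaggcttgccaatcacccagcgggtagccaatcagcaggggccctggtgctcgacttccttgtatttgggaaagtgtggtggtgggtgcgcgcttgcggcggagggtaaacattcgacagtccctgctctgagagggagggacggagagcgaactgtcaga
Pou3f2: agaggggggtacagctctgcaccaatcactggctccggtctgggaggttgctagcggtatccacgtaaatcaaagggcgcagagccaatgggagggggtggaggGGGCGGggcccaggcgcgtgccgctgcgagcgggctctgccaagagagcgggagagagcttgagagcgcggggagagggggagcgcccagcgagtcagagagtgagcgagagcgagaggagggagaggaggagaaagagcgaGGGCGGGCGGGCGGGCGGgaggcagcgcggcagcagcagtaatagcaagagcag
Cux2: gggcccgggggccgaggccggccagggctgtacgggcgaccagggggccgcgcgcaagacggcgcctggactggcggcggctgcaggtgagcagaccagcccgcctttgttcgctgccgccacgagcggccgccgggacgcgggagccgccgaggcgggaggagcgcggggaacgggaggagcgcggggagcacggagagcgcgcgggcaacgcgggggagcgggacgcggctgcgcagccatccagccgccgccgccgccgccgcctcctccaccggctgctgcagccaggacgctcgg
The Cux2 window had a GC content of 80.3%, against 63.7% for Rorb, 60.3% for Pou3f3, 67.7% for Pou3f2 and a median of 56.7% over all windows. A match is a description of the letters and not a measured binding site.

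Levels are given as insertions per 1000000 insertions of a table, written IPM. Per kilobase, the 6 loci spanned a wide range, and the ranking was led by Pou3f3 and Pou3f2. In Syn1Cre the mean density was 14.2 IPM per kb at Pou3f3, 13.5 at Pou3f2, 3.54 at Rorb, 1.02 at Cux2, 0.517 at Cux1 and 0.4929 at Pou3f1, against 0.316 at the median locus. Pou3f3 and Pou3f2 therefore stood 44.9-fold and 42.7-fold above the median locus, and Rorb 11.2-fold. In N2a the order was another one. Cux2 had 2.02 IPM per kb there, Pou3f3 1.37, Cux1 0.460, Pou3f1 0.431, Rorb 0.0618 and Pou3f2 0.0472. The gene bodies lie at chr5:136248135-136567590 for Cux1, chr5:121857962-122050415 for Cux2, chr19:18930609-19111196 for Rorb, chr4:124657646-124660655 for Pou3f1, chr4:22482095-22488366 for Pou3f2 and chr1:42695768-42700210 for Pou3f3. With their flanks the Cux1, Cux2 and Rorb loci cover 339, 212 and 201 kb, and the 3 compact POU loci at most 26.3 kb, so that most of what was counted at a POU gene lies outside its body.

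**Figure D1:**
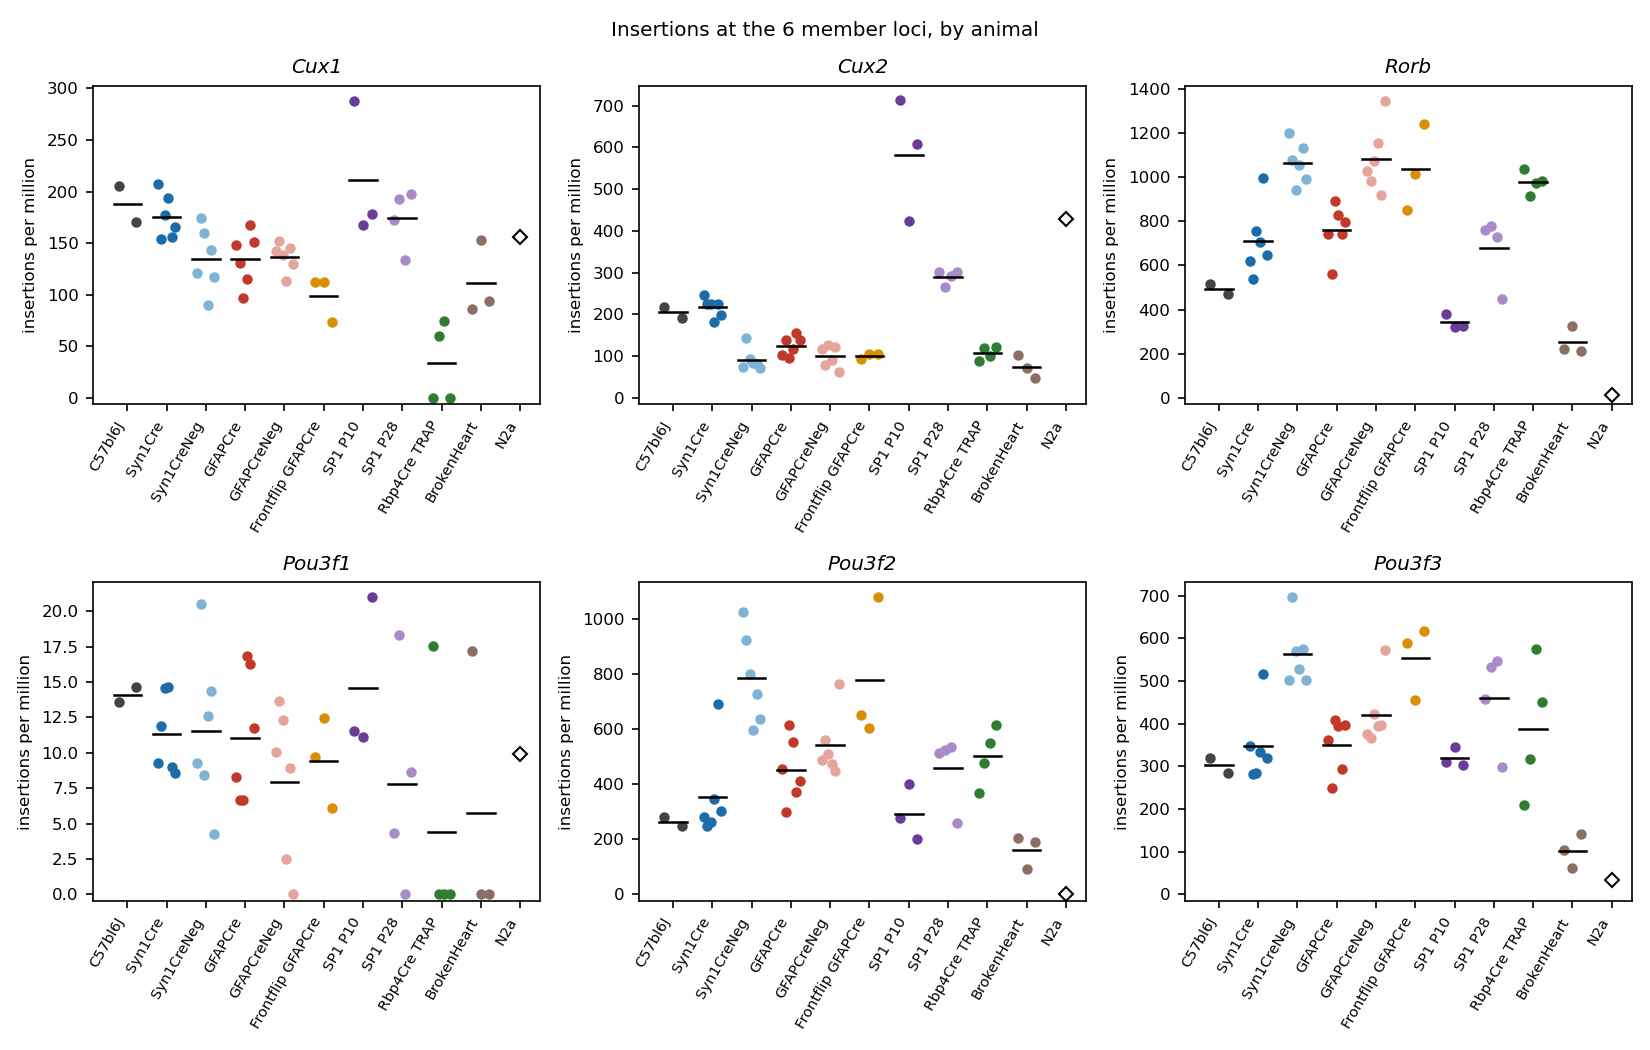
Insertions per 1000000 (IPM) in each mouse (points) at the 6 loci, by group along the horizontal axis, with bars at the group mean and an open diamond for the pooled N2a table; Frontflip_GFAPCreNeg is left out for its small tables. Cux2 was highest in Syn1Cre_SP1_P10 (423 to 714), while Rorb, Pou3f2 and Pou3f3 were high in Syn1CreNeg and low in BrokenHeart.

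Cux1 lay at like levels in most groups. Its mean level was 211 ± 66.7 IPM (SD, n = 3) in Syn1Cre_SP1_P10, 188 in C57bl6J (206 and 170.1), 176 ± 21.5 (n = 6) in Syn1Cre, 174 ± 29.0 (n = 4) in Syn1Cre_SP1_P28, 137 ± 13.6 (n = 6) in GFAPCreNeg, 135 ± 25.9 (n = 6) in GFAPCre and 134 ± 30.9 (n = 6) in Syn1CreNeg. BrokenHeart had 111 ± 36.5 (n = 3) and Frontflip_GFAPCre 99.1 ± 22.3 (n = 3). Neighbours in this order overlapped in range. Rbp4Cre_TRAP stood at the bottom with 33.6 ± 39.3 (n = 4), which rests on 6 insertions.

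Cux2 had a steeper order. Its mean level was 582 ± 147 (SD, n = 3) in Syn1Cre_SP1_P10, 290.2 ± 16.7 (n = 4) in Syn1Cre_SP1_P28, 217 ± 23.4 (n = 6) in Syn1Cre and 205 in C57bl6J (217 and 193). The first 3 of these groups did not overlap, whereas Syn1Cre and C57bl6J did. Below a gap came GFAPCre at 125 ± 22.8 (n = 6), Rbp4Cre_TRAP at 107 ± 16.6 (n = 4), Frontflip_GFAPCre at 101 ± 7.27 (n = 3), GFAPCreNeg at 99.3 ± 25.9 (n = 6), Syn1CreNeg at 91.4 ± 26.6 (n = 6) and BrokenHeart at 73.8 ± 28.04 (n = 3), and neighbours among these overlapped. N2a had 346 Cux2 insertions, or 429 IPM (95% Wilson interval 386 to 477, which covers counting error only).

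Rorb, Pou3f2 and Pou3f3 had high means in Syn1CreNeg and Frontflip_GFAPCre and their lowest in BrokenHeart, and the groups between came in different orders. Rorb had 1083 ± 152 (SD, n = 6) in GFAPCreNeg, 1066 ± 93.2 (n = 6) in Syn1CreNeg, 1036 ± 196 (n = 3) in Frontflip_GFAPCre and 976 ± 49.7 (n = 4) in Rbp4Cre_TRAP, and these overlapped one another. GFAPCre followed at 761 ± 112 (n = 6), below all 4 Rbp4Cre_TRAP mice, then Syn1Cre at 710.4 ± 158 (n = 6) and Syn1Cre_SP1_P28 at 679 ± 155 (n = 4). C57bl6J had 493 (517 and 469), Syn1Cre_SP1_P10 at 343 ± 32.3 (n = 3) and BrokenHeart at 254 ± 62.9 (n = 3). Pou3f2 ran from 784 ± 166 (n = 6) in Syn1CreNeg and 778 ± 260 (n = 3) in Frontflip_GFAPCre to 263 in C57bl6J and 162 ± 61.5 (n = 3) in BrokenHeart. Between these lay GFAPCreNeg at 541 ± 116 (n = 6), Rbp4Cre_TRAP at 502 ± 106 (n = 4), Syn1Cre_SP1_P28 at 458 ± 132 (n = 4), GFAPCre at 450.0 ± 117 (n = 6), Syn1Cre at 355 ± 168 (n = 6) and Syn1Cre_SP1_P10 at 292 ± 102 (n = 3). Pou3f3 ran from 562 ± 73.5 (n = 6) in Syn1CreNeg and 554 ± 87.2 (n = 3) in Frontflip_GFAPCre to 303 in C57bl6J and 102 ± 40.0 (n = 3) in BrokenHeart. Its middle groups were Syn1Cre_SP1_P28 at 459 ± 113 (n = 4), GFAPCreNeg at 421 ± 76.4 (n = 6), Rbp4Cre_TRAP at 388 ± 158 (n = 4), GFAPCre at 351 ± 64.3 (n = 6), Syn1Cre at 347 ± 87.1 (n = 6) and Syn1Cre_SP1_P10 at 320.1 ± 22.1 (n = 3). For both POU genes neighbours in the order overlapped, other than C57bl6J and BrokenHeart. The C57bl6J tables are the largest of the study, at 1545951 and 2186743 insertions. The Syn1CreNeg tables hold 97519 to 556145 insertions and those of GFAPCreNeg 208057 to 597230, against 443158 to 1364948 in Syn1Cre and 600443 to 1505413 in GFAPCre. The part of table size in these levels was not tested.

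Rorb and Pou3f2 were nearly empty in N2a, with 10 insertions and 1 insertion. Pou3f3 held 27 there, and its density of 1.37 IPM per kb was 4.21-fold above the N2a median locus. Pou3f1, whose product is best known from myelinating glia and cortical neurons, had means from 7.83 IPM in Syn1Cre_SP1_P28 to 14.5 in Syn1Cre_SP1_P10 in the groups with over 1 insertion there. It held 233 insertions over all mice, 1 of them in Rbp4Cre_TRAP, 1 in BrokenHeart and 0 in Frontflip_GFAPCreNeg, and passed the low-count filter in 1 of 11 comparisons.

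The first comparison sets the neuronal line against the astrocyte line, and Cux2 was the member that differed. Cux2 held 182 IPM in the lowest Syn1Cre mouse, 225 at the median and 247 in the highest, against 96.6, 127 and 154 in GFAPCre. The groups did not overlap, and all 6 Syn1Cre mice lay above every GFAPCre mouse. The fitted level was 1.66-fold higher in Syn1Cre (log2 difference 0.73 ± 0.11 SE, adjusted p = 0.000422, edgeR quasi-likelihood test with Benjamini-Hochberg adjustment over all loci tested). Cux2 was 1 of 5 members called at an adjusted p below 0.05, where 2.15% of all 11553 loci tested were called, and it was called in all 20 fits made for it, with adjusted p from 2.12e-06 to 0.0140. In these bulk tissues, fewer cells of a type and fewer insertions per cell cannot be told apart.

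The other 4 members tested were not called between Syn1Cre and GFAPCre. Cux1 had 154, 171 and 207 in Syn1Cre and 96.6, 139 and 167 in GFAPCre as lowest, median and highest, with a log2 difference of 0.33 ± 0.12 (adjusted p = 0.160, edgeR), and its groups overlapped. Rorb differed by -0.15 ± 0.14 (adjusted p = 0.610, edgeR) and Pou3f3 by -0.07 ± 0.15 (adjusted p = 0.846, edgeR). Pou3f2 differed by -0.41 ± 0.21 (adjusted p = 0.322, edgeR). Its value turned on Syn1Cre mouse 5, which held 690.5 IPM at Pou3f2 where the other 5 Syn1Cre mice held 248 to 347. Without that mouse the Pou3f2 difference was -0.69 and was called (adjusted p = 0.00187, edgeR). The same mouse had 1954 IPM at the astrocyte loci, against 587 to 863 in the other 5, and its part in the Pou3f2 value was not tested. Against GFAPCre with Syn1Cre mice 1 to 3 only, whose labels are laid out as those of GFAPCre, Pou3f2 (-0.90, adjusted p = 0.000132) and Rorb (-0.38, adjusted p = 0.0407) were called lower by edgeR. The median log2 difference of the 5 members was -0.07, beside 0.00 for all loci tested.

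The gene lists around the members gave little else in this comparison. Of 14 other upper-layer genes tested, edgeR called 0 in either direction, with 1 at an unadjusted p under 0.05 and 0 called by DESeq2. Of 9 relatives of the POU, CUT and ROR families, 1 was called, Satb1, a chromatin organiser with CUT domains, at 0.59 ± 0.10 (adjusted p = 0.000789, edgeR). Of 13 deep-layer genes, 1 was higher (Bcl11b, at 0.35 ± 0.09) and 2 were lower (Etv1 and Ldb2). All 7 interneuron loci tested were higher in Syn1Cre, with a median log2 difference of 2.35, and their part in the Cux2 difference was not tested. Of the 8 astrocyte loci tested edgeR called 0, with 2 at an unadjusted p under 0.05 and 0 called by DESeq2.

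**Figure D2:**
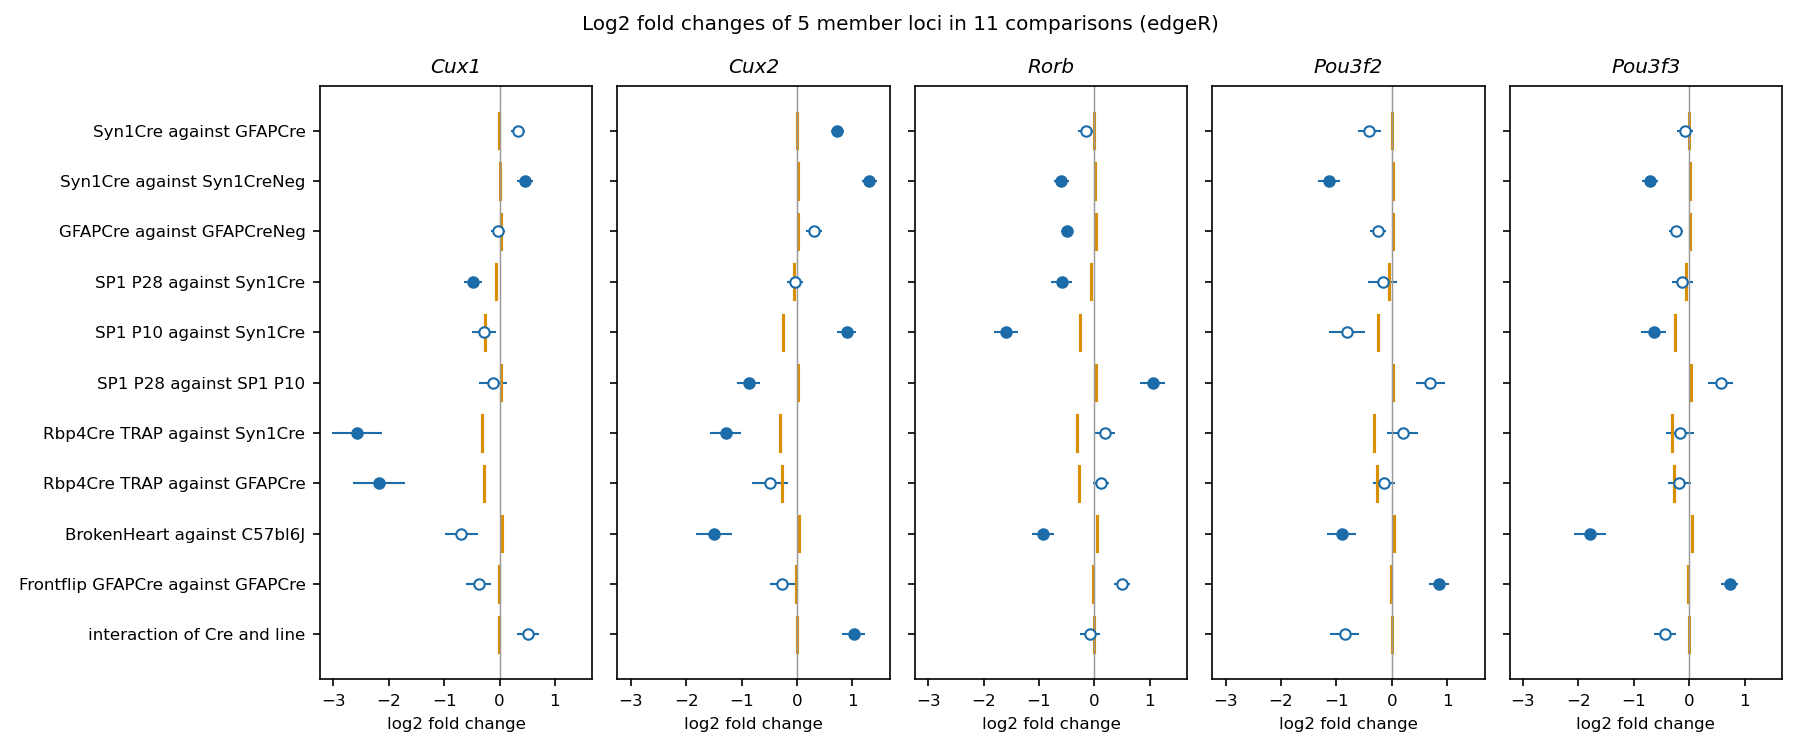
Log2 difference of the first group over the second (points, with SE) for 5 members in 11 comparisons from edgeR; filled points passed an adjusted p of 0.05 and orange ticks mark the median of all loci tested. Cux2 rose in Syn1Cre over GFAPCre, Syn1Cre over Syn1CreNeg and SP1 P10 over Syn1Cre; for SP1 P28 over Syn1Cre the directions of Cux1, Cux2, Pou3f2 and Pou3f3 turned when scaled by total insertions.

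The comparison of Syn1Cre with Syn1CreNeg asks what labelled neuronal Cre changes, and all 5 members tested were called. The CUT genes were higher with Cre and Rorb and the POU genes were lower. The share of all 8613 loci called was 31.1%. Cux2 held 182, 225 and 247 IPM (lowest, median, highest) in Syn1Cre and 72.2, 82.9 and 144 in Syn1CreNeg. No Syn1Cre mouse overlapped a Syn1CreNeg mouse. The difference was 2.48-fold (log2 1.31 ± 0.14, adjusted p = 4.75e-07, edgeR). Cux1 held 89.9, 132 and 174 in Syn1CreNeg and overlapped with Syn1Cre. Its difference of 0.47 ± 0.15 (adjusted p = 0.0164, edgeR) was no longer called without Syn1CreNeg mouse 4 (0.32, adjusted p = 0.120) or mouse 6 (0.42, adjusted p = 0.0699).

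Rorb, the nuclear receptor gene, fell by 0.60 ± 0.13 on the log2 scale with Cre (adjusted p = 0.00130, edgeR). It held 540.3, 677 and 995 IPM in Syn1Cre and 941, 1066 and 1200.2 in Syn1CreNeg, and 5 of 6 Syn1Cre mice lay below every Syn1CreNeg mouse. Pou3f2 fell by 1.13 ± 0.20 (adjusted p = 0.000149, edgeR), from 597, 762 and 1023 in Syn1CreNeg to 248, 291 and 690.5 in Syn1Cre, and by 0.65 in the gene body alone (adjusted p = 0.00652, edgeR). Pou3f3 fell by 0.71 ± 0.14 (adjusted p = 0.000536, edgeR), from 501, 549 and 697 to 283, 327 and 517. For each of these 3 loci mouse 5 was the 1 Syn1Cre mouse inside the Syn1CreNeg range. The astrocyte loci moved the same way, with 7 of 7 tested lower in Syn1Cre (median -1.62) and sums of 587 to 1954 IPM against 2125 to 2866, and the interneuron loci moved the other way, with 7 of 7 higher (median 2.16). Their part in the members' differences was not tested.

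Of 12 other upper-layer genes tested, 5 were higher and 1 was lower, at a median of 0.35, beside 0.02 over all loci. Among those called were Scnn1a (-1.74 ± 0.34) and Rasgrf2 (0.74 ± 0.13). Among 8 relatives, 3 were higher and 3 lower, led by Pou3f4, the remaining class III POU gene (-1.64 ± 0.29), Pou2f1 (-1.15 ± 0.18) and Satb1 (1.13 ± 0.12). Of 13 deep-layer genes, 2 were higher and 1 lower. Of 5 excitatory loci 3 were higher, of 4 oligodendrocyte loci 2 were lower, and of 2 microglia and endothelium loci 1 was higher and 1 lower. The members' own median was -0.60.

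In the astrocyte line, 1 of 5 members was called between GFAPCre and GFAPCreNeg, where 8.15% of all 9203 loci were. Rorb fell by 0.50 ± 0.11 on the log2 scale (adjusted p = 0.00400, edgeR). It held 563, 769 and 891 IPM in GFAPCre and 918, 1050.05 and 1346 in GFAPCreNeg, so all 6 GFAPCre mice lay below every GFAPCreNeg mouse. Among the mice whose sequencing pools hold both groups, with the pool as a block, the Rorb difference was -0.51 and was not called (adjusted p = 0.131, edgeR). Cux2 had 96.6, 127 and 154 in GFAPCre and 62.5, 104 and 126 in GFAPCreNeg, a difference of 0.30 ± 0.14 (adjusted p = 0.210, edgeR). Cux1 differed by -0.02 ± 0.13, Pou3f2 by -0.25 ± 0.14 and Pou3f3 by -0.24 ± 0.12, with adjusted p of 0.937, 0.306 and 0.242 (edgeR). When each position was counted once a mouse, Pou3f2 (-0.46) and Pou3f3 (-0.63) were called. Of 8 astrocyte loci 4 were lower with Cre (median -0.61), and of the other upper-layer genes 2 of 11 were higher, among them Lhx2 (0.40 ± 0.11). The members' median was -0.24, beside 0.02 over all loci.

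The difference between the 2 lines in what Cre changed was tested as an interaction over the 4 groups in 1 model. Cux2 was 1 of 5 members called, where 0.692% of 10550 loci were called. Cux2's change with Cre was larger in the Syn1Cre line by 1.03 ± 0.21 on the log2 scale (adjusted p = 0.00599, edgeR). With each position counted once a mouse, that value was 0.54 and was not called (adjusted p = 0.361). Rorb's change with Cre differed by -0.07 ± 0.18 between the lines (adjusted p = 0.912, edgeR), so its fall in both lines gave no called difference. Pou3f2 differed by -0.85 ± 0.27 (adjusted p = 0.131, edgeR), Cux1 by 0.51 (adjusted p = 0.224) and Pou3f3 by -0.44 (adjusted p = 0.326). Without Syn1Cre mouse 5, Pou3f2 (-1.14) and Pou3f3 (-0.59, adjusted p = 0.0392) were called. Pou3f2 was also called without a low-count filter (-0.84, adjusted p = 0.0432), without GFAPCre mouse 2 (adjusted p = 0.0496) and without GFAPCreNeg mouse 6 (adjusted p = 0.0432). Satb1 was the 1 relative of 8 called (0.96 ± 0.15), and edgeR called 0 of 14 other upper-layer genes, with 5 at an unadjusted p under 0.05 and 0 called by DESeq2.

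The SP1 mice ask where the transposase goes when the label adds SP1, and at postnatal day 10 Cux2 and Rorb moved in opposite directions. The labels give no age for Syn1Cre, so SP1 and age cannot be told apart in the comparisons with it. Cux2 held 714, 423 and 608 IPM in the 3 Syn1Cre_SP1_P10 mice, all above the Syn1Cre range of 182 to 247. The difference was 0.90 ± 0.17 on the log2 scale, or 1.87-fold (adjusted p = 0.000118, edgeR), and 1.43 when libraries were scaled by total insertions (adjusted p = 3.77e-08). Rorb held 380, 323 and 325 in these mice, all below the Syn1Cre range of 540.3 to 995. It fell by 1.59 ± 0.22 (adjusted p = 1.89e-06, edgeR), and by 1.05 under scaling by total insertions (adjusted p = 5.48e-05).

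The scaling moved every value in the SP1 comparisons, since the 2 scalings place the middle of all loci differently. With the trimmed mean of M-values (TMM), which sets the typical locus near no change, the median log2 difference of all loci was -0.26 for day 10 and -0.06 for day 28, and with total insertions it was 0.27 and 0.42. Of the loci called, 49.3% were higher at day 10 under TMM and 76.1% under total insertions, and 50.9% and 80.4% at day 28. The share of loci called under TMM was 40.7% of 12787 at day 10 and 51.5% of 12053 at day 28.

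Of 6 members tested at day 10, 1 was higher and 2 were lower, and the third call, Pou3f3, depended on the scaling. Pou3f3 held 311, 345 and 304 IPM, inside the Syn1Cre range of 283 to 517, and its difference was -0.64 ± 0.23 (adjusted p = 0.0250, edgeR) under TMM, -0.10 under total insertions (adjusted p = 0.741) and 0.74 with each position counted once a mouse (adjusted p = 0.0255). It was also not called without Syn1Cre_SP1_P10 mouse 1 (adjusted p = 0.0732) or mouse 3 (adjusted p = 0.0791), and not in the gene body alone (-0.80, adjusted p = 0.575). Pou3f2 held 276, 401 and 199, and its difference was -0.81 ± 0.33 (adjusted p = 0.0509, edgeR) under TMM and 0.44 by positions (adjusted p = 0.250). It was called lower without a low-count filter (-0.93, adjusted p = 0.00274) and in 6 of 9 fits that left out 1 mouse, over which it ran from -1.14 to -0.53. Cux1 held 288, 167 and 178, with -0.28 ± 0.21 under TMM and 0.25 under total insertions (adjusted p = 0.306 and 0.392, edgeR). Pou3f1 differed by -0.19 ± 0.68 under TMM and 0.33 under total insertions. The members' median was -0.46.

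At day 28, 2 of 5 members were called, both lower under TMM, and both calls ended under total insertions. Cux1 held 172, 193, 134 and 197 IPM and differed by -0.47 ± 0.16 (adjusted p = 0.0159, edgeR) under TMM and 0.01 under total insertions. Rorb held 759, 780.1, 729 and 448 and differed by -0.59 ± 0.19 (adjusted p = 0.0114, edgeR) under TMM and -0.09 under total insertions. Rorb was not called without Syn1Cre_SP1_P28 mouse 4 (-0.40, adjusted p = 0.0814), and Cux1 was not called without mouse 3 (-0.37, adjusted p = 0.0810). Neither was called with positions counted once (Rorb -0.12, adjusted p = 0.597; Cux1 -0.33, adjusted p = 0.0837) or in the gene body alone (Rorb -0.22, adjusted p = 0.365; Cux1 -0.099, adjusted p = 0.617). Both loci overlapped with Syn1Cre.

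Cux2 held 302, 266, 292 and 301 IPM at day 28, all above the Syn1Cre range, and its difference was -0.04 ± 0.14 under TMM (adjusted p = 0.831, edgeR) and 0.44 under total insertions (adjusted p = 0.0102). Pou3f2 held 513, 523, 535 and 259.7 and Pou3f3 held 457, 532, 547 and 299.5, and both overlapped with Syn1Cre. Their differences were -0.17 ± 0.26 and -0.13 ± 0.19 under TMM (adjusted p = 0.616 and 0.604, edgeR), 0.34 and 0.37 under total insertions, and 0.58 and 0.88 with each position counted once a mouse (adjusted p = 0.0397 and 0.000834). The members' median was -0.17.

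Most called genes of the cortical lists were lower in both SP1 comparisons. At day 10, 9 of 15 other upper-layer genes and 10 of 13 deep-layer genes were lower and 0 of either list were higher, with medians of -1.39 and -1.74. At day 28, 8 of 14 and 9 of 13 were lower and again 0 higher, with medians of -1.04 and -1.35. Among the upper-layer genes that fell at day 10 were Kcnh5, a potassium channel gene (-3.20 ± 0.37), and Lamp5 (-1.98 ± 0.54). Pou6f1 was the 1 relative of 9 that was higher, at 1.41 ± 0.26 at day 10 and 1.21 ± 0.18 at day 28, while 4 of 9 were lower each time. Of 8 interneuron loci 6 were higher at day 10 and 2 at day 28. Both comparisons use the same 6 Syn1Cre mice.

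Between the 2 SP1 ages, Cux2 was lower and Rorb higher at day 28, 2 of 5 members, where 11.2% of 3460 loci were called. All 4 day 28 mice lay below all 3 day 10 mice for Cux2, and above them for Rorb. Cux2 fell by 0.87 ± 0.21 (adjusted p = 0.0103, edgeR) and Rorb rose by 1.05 ± 0.23 (adjusted p = 0.00577, edgeR). The Cux2 call was lost without day 10 mouse 1 (adjusted p = 0.0951) or mouse 3 (adjusted p = 0.0822), and the Rorb call without day 10 mouse 2 (adjusted p = 0.0556) or mouse 3 (adjusted p = 0.0807). Pou3f2 differed by 0.70 ± 0.26 (adjusted p = 0.0791, edgeR) and Pou3f3 by 0.57 ± 0.23 (adjusted p = 0.0951, edgeR), and both were called without day 28 mouse 4 (0.92 and 0.73). Cux1 differed by -0.12 ± 0.26 (adjusted p = 0.790, edgeR). Of all loci called 66.7% were higher under TMM and 44.6% under total insertions. Of 6 relatives 3 were higher, led by Pou3f4 (1.74 ± 0.39). The members' median was 0.57, beside 0.03 over all loci.

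In the deep-layer line, read from ribosome-bound RNA of the whole forebrain, the CUT genes were low and the others were not called. Tissue, RNA fraction and Cre line all differ between Rbp4Cre_TRAP and Syn1Cre and cannot be told apart. Cux1 held 0, 59.6, 74.9 and 0 IPM in the 4 mice, all below the Syn1Cre range of 154 to 207. It fell by 2.57 ± 0.45 on the log2 scale (adjusted p = 0.000745, edgeR) and was called in all 17 fits made for it. Cux2 held 87.7, 119, 99.8 and 123, all below the Syn1Cre range, and fell by 1.28 ± 0.28 (adjusted p = 0.00861, edgeR). The Cux2 call was lost under total insertions (-1.04, adjusted p = 0.0633) and with positions counted once (-0.87, adjusted p = 0.0717). These were 2 of 5 members, where 2.11% of 10693 loci were called. Cux1 rests on 6 insertions and Cux2 on 18 over the 4 mice.

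Rorb held 1035, 914, 973 and 983 IPM in Rbp4Cre_TRAP, within the Syn1Cre range of 540.3 to 995 but for mouse 1, and differed by 0.20 ± 0.18 (adjusted p = 0.659, edgeR). Pou3f2 differed by 0.20 ± 0.28 (adjusted p = 0.793, edgeR). Pou3f3 differed by -0.17 ± 0.25 under TMM and 0.10 under total insertions (adjusted p = 0.798 and 0.911, edgeR). With each position counted once a mouse, Rorb (0.74, adjusted p = 0.00745), Pou3f2 (1.34, adjusted p = 0.000642) and Pou3f3 (1.31, adjusted p = 0.00151) were called higher. Rbp4Cre_TRAP tables hold 24408 to 57014 insertions against 443158 to 1364948 in Syn1Cre, and a Rorb position held 1.05 to 1.14 insertions on average in a Rbp4Cre_TRAP mouse against 1.81 to 2.43 in a Syn1Cre mouse. The part of table size in these differences was not tested.

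Against GFAPCre, Cux1 was again low in Rbp4Cre_TRAP, at -2.17 ± 0.47 (adjusted p = 0.000991, edgeR), and was 1 of 5 members called where 5.98% of 10391 loci were. Cux2 overlapped with GFAPCre and differed by -0.49 ± 0.33 (adjusted p = 0.446, edgeR). Rorb was above every GFAPCre mouse in all 4 mice and differed by 0.12 ± 0.15 (adjusted p = 0.735, edgeR). Pou3f2 differed by -0.14 under TMM and 0.11 under total insertions (adjusted p = 0.767 and 0.848, edgeR), and Pou3f3 by -0.18 and 0.07 (adjusted p = 0.717 and 0.911, edgeR). With each position counted once a mouse, Rorb (0.58, adjusted p = 0.00604), Pou3f2 (1.13, adjusted p = 0.000149) and Pou3f3 (1.23, adjusted p = 0.000361) were called higher than in GFAPCre. The interneuron genes Gad1, Dlx2, Dlx5, Lhx6 and Slc32a1 held no insertion in Rbp4Cre_TRAP, where a count of 0 has a limit of 17.5 IPM. The other 3 of 8 interneuron loci held insertions, and the 8 summed to 0 to 125 IPM, against 118 to 175 in GFAPCre. The deep-layer loci summed to 7367 to 8440 IPM in Rbp4Cre_TRAP against 5236 to 6115 in Syn1Cre. Both comparisons use the same 4 Rbp4Cre_TRAP mice.

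Among deep-layer genes, 2 of 13 were higher and 0 lower in Rbp4Cre_TRAP over Syn1Cre, Ldb2 (0.83 ± 0.15) and Foxp1 (0.67 ± 0.14), and 3 were higher and 1 lower over GFAPCre. Pou2f1 was the 1 relative lower than in Syn1Cre (-1.83 ± 0.49) and, with Pou3f4 (-2.10 ± 0.50), 1 of 2 lower than in GFAPCre. The median of the 5 members was -0.17 over Syn1Cre and -0.18 over GFAPCre, beside -0.31 and -0.27 for all loci. Of the loci called, 9.29% were higher over Syn1Cre under TMM and 42.6% under total insertions, and 12.4% and 38.9% over GFAPCre.

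BrokenHeart and C57bl6J compare a transposon read from DNA with the one read from RNA, and 4 of 5 members were lower in the DNA reading. The mice of both groups are cortex, and their genotype and virus differ along with the reading, so these cannot be told apart. Pou3f3 held 103, 61.1 and 141 IPM in BrokenHeart and 320.2 and 285 in C57bl6J, a fall of 1.79 ± 0.29 on the log2 scale (adjusted p = 6.89e-06, edgeR). Cux2 held 103, 71.3 and 47.0 against 217 and 193 and was 2.82-fold lower (log2 SE 0.32, adjusted p = 0.000401, edgeR). Rorb held 223, 326 and 212 against 517 and 469 and fell by 0.93 ± 0.20 (adjusted p = 0.000339, edgeR). The groups did not overlap at any of these 3 loci. The Rorb call was lost with each position counted once a mouse (-0.40, adjusted p = 0.123), and the Rorb difference was -1.68 without BrokenHeart mouse 2.

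Pou3f2 held 206, 91.7 and 188 in BrokenHeart and 279 and 247 in C57bl6J and fell by 0.90 ± 0.26 (adjusted p = 0.00629, edgeR). Its difference was -1.47 without BrokenHeart mouse 1, its call was lost without mouse 2 (adjusted p = 0.0600), and its direction turned to 0.53 with each position counted once a mouse. Cux1 held 85.8, 153 and 94.1 against 206 and 170.1 and differed by -0.69 ± 0.30 (adjusted p = 0.0595, edgeR). Cux1 was called lower without a low-count filter (-1.22, adjusted p = 0.00250) and without BrokenHeart mouse 2 (-1.56, adjusted p = 0.00581). Of all 1879 loci tested 39.9% were called, and the members' median was -0.93, beside 0.04 over all loci. Of 10 deep-layer genes 8 were lower and 0 higher, led by Tbr1 (-1.84 ± 0.28), Foxp2 (-1.78 ± 0.18) and Zfpm2 (-1.26 ± 0.19), and of 8 other upper-layer genes 3 were lower and 1 was higher.

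Frontflip_GFAPCre and GFAPCre share the Cre line, and Pou3f2 and Pou3f3 were higher with Frontflip. Pou3f1 was not tested and had means of 9.43 IPM with Frontflip and 11.1 in GFAPCre. Pou3f3 held 589, 454 and 618 IPM, all above the GFAPCre range of 249.8 to 408, and rose by 0.73 ± 0.16 (adjusted p = 0.0118, edgeR). Pou3f2 held 652, 604 and 1077, with 2 of 3 mice above the GFAPCre range of 297 to 613, and rose by 0.85 ± 0.19 (adjusted p = 0.0123, edgeR). In the gene body alone Pou3f2 turned to -0.15 and was not called (adjusted p = 0.877), while Pou3f3 could not be tested there. The Pou3f2 call was lost without Frontflip_GFAPCre mouse 3 (0.52, adjusted p = 0.353), and the Pou3f3 call without mouse 1 (adjusted p = 0.0627) or mouse 3 (adjusted p = 0.176). Rorb held 851, 1015 and 1242 and differed by 0.50 ± 0.14 (adjusted p = 0.0607, edgeR). Rorb was called higher with each position counted once a mouse (0.57, adjusted p = 0.0133) and in the gene body alone (0.55, adjusted p = 0.0475). It was also called without GFAPCre mouse 3 (0.55, adjusted p = 0.00771) or Frontflip_GFAPCre mouse 1 (0.64, adjusted p = 0.0327). These 2 of 5 members were called where 1.75% of 10526 loci were. Cux1 (-0.38 ± 0.23) and Cux2 (-0.26 ± 0.22) had adjusted p of 0.49 and 0.66 (edgeR). Of 12 other upper-layer genes edgeR called 0, with 1 at an unadjusted p under 0.05 and 0 called by DESeq2. Of 8 astrocyte loci 2 were higher, and their sums were 1678 to 2466 IPM with Frontflip against 808 to 1647 in GFAPCre. The part of the astrocyte loci in the Pou3f2 and Pou3f3 differences was not tested. The Frontflip_GFAPCre tables hold 160631 to 205559 insertions against 600443 to 1505413 in GFAPCre, and 85.9% of all loci called were higher under TMM and 75.5% under total insertions. The part of table size was not tested.

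Within the loci, insertions recurred at the same positions, with the most insertions for each position at Pou3f3 and Pou3f2. Over the 46 mice, Pou3f3 held 7614 insertions at 94 positions and Pou3f2 held 8602 at 147, while Rorb held 15550 at 1041, Cux2 held 3566 at 404, Pou3f1 held 233 at 37 and Cux1 held 3289 at 763. The most recurrent Rorb position was hit in 43 of 46 mice, as was that of Pou3f2, and the most recurrent ones of Pou3f3, Cux2 and Cux1 were hit in 40, 33 and 28 mice. In C57bl6J, a Pou3f3 position held 6.27 and 7.60 insertions on average in the 2 mice.

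Insertions at Pou3f3 lay mostly around the gene and not in it. In Syn1Cre, 46.9% were upstream of the gene, 3.74% in its body and 49.4% downstream. At Pou3f2, 36.7% of the Syn1Cre insertions fell in the window from 10 to 5 kb upstream of the start, against 44.3% in Syn1CreNeg and 46.8% in Syn1Cre_SP1_P10. At Rorb, the first 15 kb of the gene held 42.8% of the Syn1Cre insertions (95% Wilson interval 41.2 to 44.4), 37.8% in Syn1CreNeg (35.7 to 40.0), 40.6% in GFAPCre (39.1 to 42.2), 48.8% in Rbp4Cre_TRAP (41.4 to 56.3) and 29.6% in BrokenHeart (19.1 to 42.8). In a locus of 201 kb, Rorb insertions thus gathered near the start in each of these groups.

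At Cux2 the windows from 100 to 105 kb inside the gene stood out. That window held 19.6% of Syn1Cre insertions (95% Wilson interval 17.5 to 21.99), 16.8% in GFAPCre (14.2 to 19.9), 25.3% in Syn1Cre_SP1_P10 (19.2 to 32.6), 21.8% in Syn1Cre_SP1_P28 (17.6 to 26.6) and 26.6% in N2a (22.2 to 31.5). It held 44.2 ± 9.44 IPM in Syn1Cre (SD, n = 6), 21.9 ± 4.05 in GFAPCre (n = 6) and 147 ± 59.9 in Syn1Cre_SP1_P10 (n = 3). The rest of the locus held 149 to 199 IPM in Syn1Cre and 76.6 to 127 in GFAPCre, with no overlap, so Cux2 was higher in Syn1Cre both inside and outside this window. N2a and the cortex thus shared the window of Cux2 with most insertions. At Cux1, by contrast, N2a held 23.8% of its insertions (17.2 to 31.95) in the window from 160 to 165 kb, which held 2.63% in Syn1Cre (1.80 to 3.82) and 2.14% in GFAPCre (1.30 to 3.51).

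**Figure D3:**
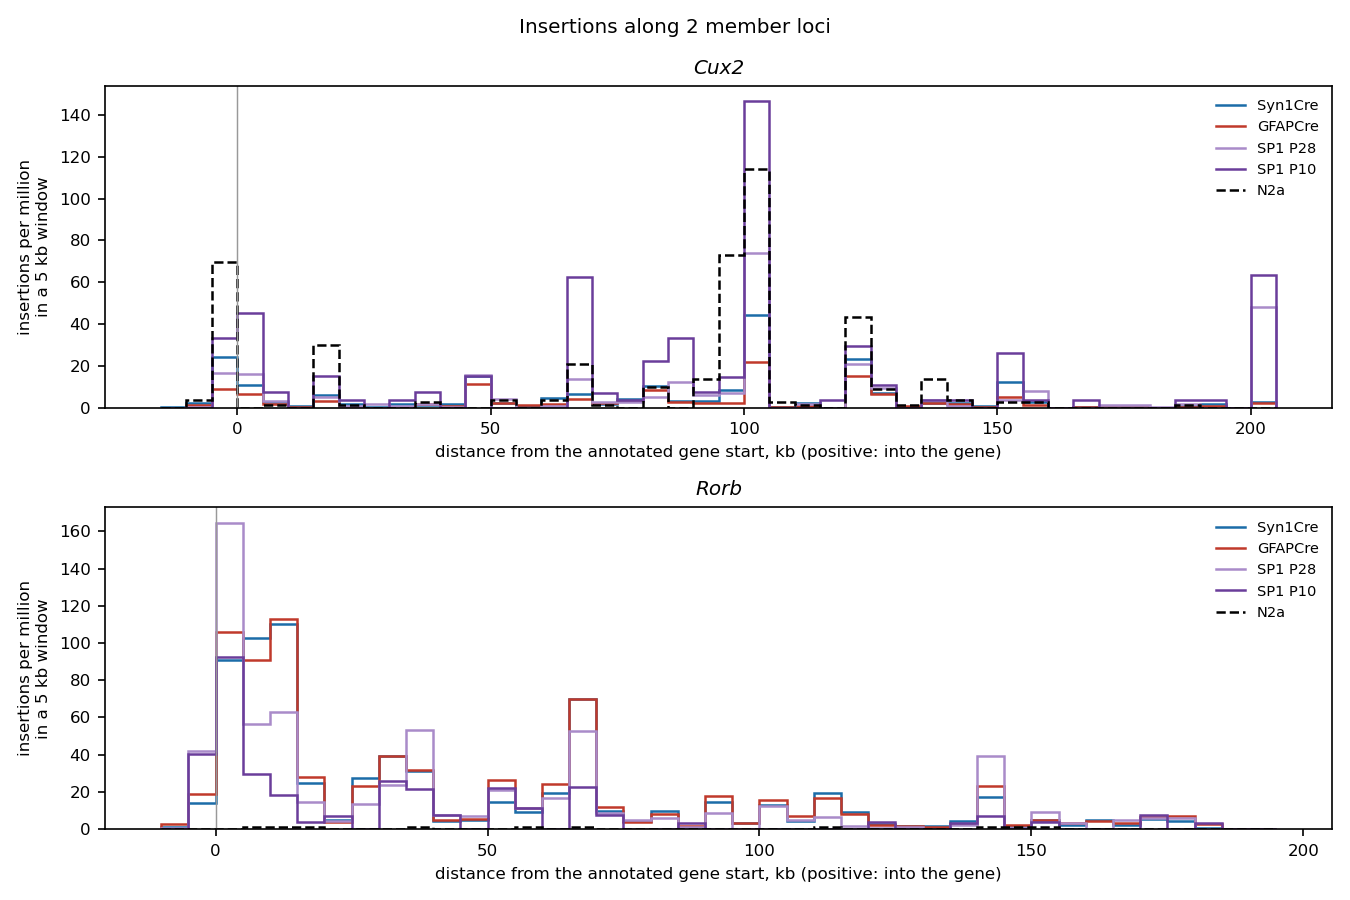
Mean IPM in 5-kb windows along Cux2 and Rorb, by distance from the gene start in kb, for Syn1Cre, GFAPCre, Syn1Cre_SP1_P28, Syn1Cre_SP1_P10 and N2a (dashed). The Cux2 window from 100 to 105 kb reached 147 IPM in Syn1Cre_SP1_P10 and 44.2 in Syn1Cre, and a further rise near 200 kb in the SP1 mice lies at the start of the neighbouring gene Pheta1.

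Part of the Cux2 difference in the SP1 mice lay at another gene. The start of Pheta1, at position 121848997 of chromosome 5 on the plus strand, falls in the 10 kb downstream of Cux2, and it was singled out after the profile was seen. Within 1 kb of it, Syn1Cre_SP1_P10 mice held 63.5 ± 30.5 IPM (SD, n = 3), Syn1Cre_SP1_P28 mice 47.9 ± 15.1 (n = 4) and Syn1Cre mice 2.71 ± 2.28 (n = 6). Without these insertions Cux2 held 356 to 622 IPM at day 10, still above the Syn1Cre range of 179 to 247, and 211 to 261 at day 28, which overlapped with it. Counted in the gene body alone, Cux2 was higher at day 10 by 1.31 (adjusted p = 3.55e-06, edgeR) and differed by 0.21 at day 28 (adjusted p = 0.242, edgeR). The rise of Cux2 over Syn1Cre at day 10 therefore held in the gene body, and the level above Syn1Cre at day 28 did not hold without the insertions near Pheta1.

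SP1 is known for binding near gene starts, so the share of a locus's insertions within 1 kb of an annotated start was compared between the SP1 mice and Syn1Cre. Rorb and Pou3f3 had larger shares in both SP1 groups. Shares were computed for the 6 members only, so whether other loci moved the same way was not tested. At Rorb the share was 4.05% ± 0.79 in Syn1Cre (SD, n = 6; lowest 3.11, highest 5.08). It was 7.95, 5.88, 9.17 and 6.95% in the day 28 mice and 12.1, 10.3 and 16.1% in the day 10 mice. These shares rest on 48 of 640 insertions at day 28 and 12 of 93 at day 10, with 3 to 5 in a day 10 mouse. All SP1 mice lay above every Syn1Cre mouse, with exact two-sided permutation p of 0.00476 and 0.0119, which are the smallest these groups allow, and 0.0429 each after Benjamini-Hochberg adjustment over 12 tests. The first start of Rorb is the one whose window holds 2 GGGCGG sites. Within 1 kb of it, Rorb held a mean of 11.3 IPM in Syn1Cre (5.60 to 18.1), 43.1 at day 28 (20.8 to 60.4) and 44.0 at day 10 (33.4 to 52.4). Near its second start, which has 0 sites, Rorb held 17.1 (7.97 to 20.3), 7.93 (0 to 12.1) and 0. The second start of Cux2 also has 0 sites, and there the mean level went the other way. It was 7.38 IPM in Syn1Cre (6.25 to 9.03), 12.99 at day 28 (0 to 30.4) and 41.25 at day 10 (10.5 to 57.6). The day 28 mean rests on 13 insertions and overlapped with Syn1Cre, and the day 10 mean rests on 11. The part of GGGCGG sites in these levels was not tested.

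At Pou3f3 the share was 1.03% ± 0.76 in Syn1Cre (SD, n = 6, lowest 0.395, highest 2.20). It was 6.60, 1.72, 5.56 and 2.89% in the day 28 mice and 11.1, 9.68 and 3.45% in the day 10 mice. These shares rest on 18 of 427 insertions at day 28 and 7 of 87 at day 10, with 1 to 3 in a day 10 mouse. The exact two-sided permutation p was 0.0143 at day 28 and 0.0119 at day 10, each 0.0429 after adjustment, with 3 of 4 and 3 of 3 mice above every Syn1Cre mouse. The mean Pou3f3 level near the start was 3.87 IPM in Syn1Cre (1.12 to 9.03), 19.6 at day 28 (8.66 to 30.4) and 26.2 at day 10 (10.5 to 34.5). Its level over the whole locus overlapped with Syn1Cre at both ages. With each position counted once a mouse, none of these 4 shares passed (adjusted p = 0.45 and 0.25 for Rorb, 0.0571 and 0.0714 for Pou3f3, exact permutation). For Rorb and for Pou3f3 alike, the call also ended without day 28 mouse 1, 3 or 4, and without any 1 of the 3 day 10 mice (adjusted p = 0.0714 to 0.107, exact permutation). With 2 day 10 mice against 6, the smallest unadjusted p is 0.0357 (exact permutation). With 3 day 28 mice against 6 it is 0.0119. Each such test was adjusted over the 6 members at 1 age, so losing a call cannot by itself show dependence on 1 mouse. Rorb had the smallest possible p in each of them, and Pou3f3 had it in those of day 10. At day 28 Pou3f3 had an unadjusted p of 0.0357 without mouse 1, 3 or 4 (exact permutation).

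**Figure D4:**
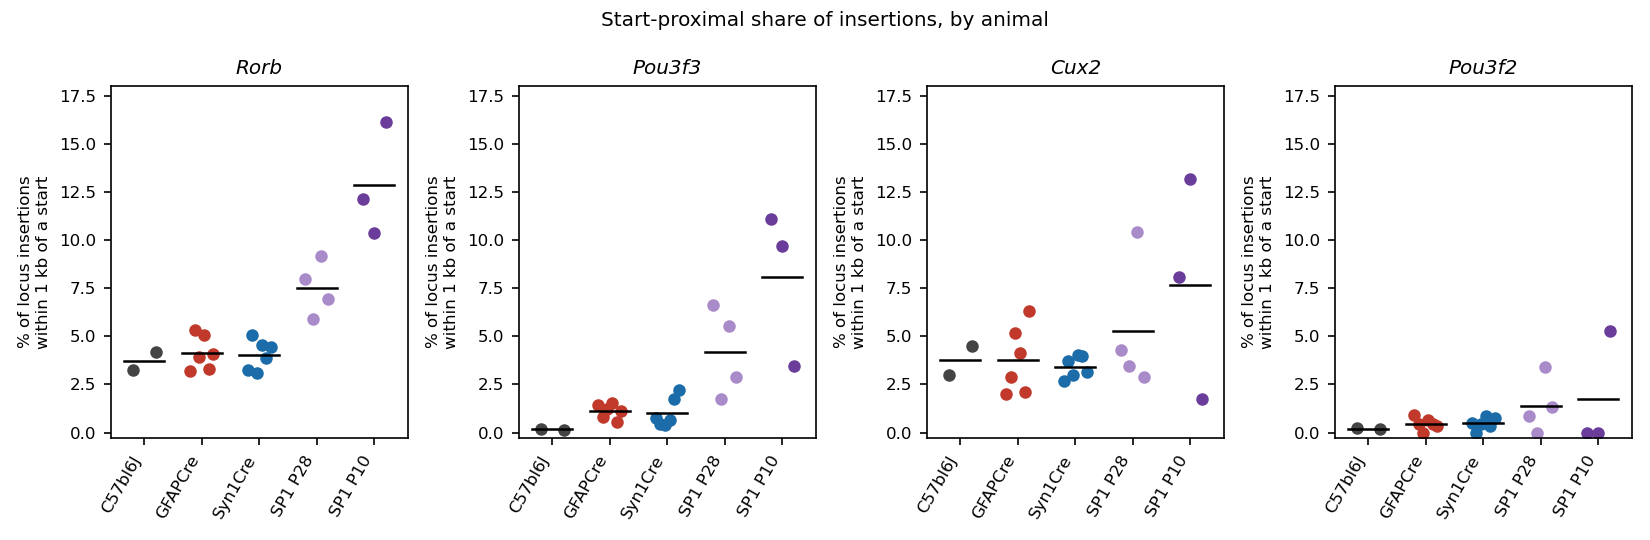
Percent of a locus's insertions within 1 kb of an annotated start in each mouse (points; bars are group means) for Rorb, Pou3f3, Cux2 and Pou3f2 in C57bl6J, GFAPCre, Syn1Cre, SP1 P28 and SP1 P10. For Rorb the day 10 mice (10.3 to 16.1) and the day 28 mice (5.88 to 9.17) lie above all Syn1Cre mice (3.11 to 5.08).

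The other members gave no called change in this share. Cux2 had 3.43% in Syn1Cre, 5.26% at day 28 and 7.65% at day 10 (adjusted p = 0.286 and 0.2, exact permutation). Pou3f2, whose window holds 5 GGGCGG sites, had 0.476, 1.40 and 1.75% (adjusted p = 0.210 and 0.460, exact permutation). Cux1 had 1.59, 1.79 and 1.96% (adjusted p = 0.845 for both, exact permutation), and at Pou3f1 too few insertions were present for a share to be read. Pou3f1 had no annotated start among the windows used here, so its share was measured from either end of the gene.

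Single positions near these starts were singled out after their values were seen. The Pou3f3 position at -322 bases from its start held 8 insertions, in 6 of 7 SP1 mice, and 0 in any other table. The Rorb position at -542 bases from its first start held 30 insertions in 6 SP1 mice and 23 in 6 Syn1Cre mice. The Cux2 position at -891 bases from its second start held 14 in 6 SP1 mice and 8 in 5 Syn1Cre mice. The SP1 tables are much smaller, with 86842 to 577609 insertions against 443158 to 1364948 in Syn1Cre.

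The loci whose levels followed each member most closely were found over the means of 10 groups, those with Frontflip_GFAPCreNeg left out. These correlations share libraries and depth and are given as a description. Rorb and Pou3f2 had a Pearson r of 0.93, Pou3f2 and Pou3f3 of 0.91, and Rorb and Pou3f3 of 0.85. Cux1 had 0.80 with Pou3f1 and 0.56 with Cux2, Cux2 had 0.55 with Pou3f1, and Cux2 and Rorb had -0.36. Pou3f1 averaged 9.79 IPM over these groups and held 1 insertion each in Rbp4Cre_TRAP and BrokenHeart, so its correlations rest on few insertions. Among loci with at least 50 IPM and over 1 Mb away, the closest to Cux1 was Dlx2, an interneuron transcription factor gene (r = 0.96). Dlx2 held no insertion in Rbp4Cre_TRAP, the group where Cux1 had its lowest mean, on 6 insertions. The part of that group in this correlation was not tested. Among the same loci the closest to Cux2 was Nsg2 (0.97), to Rorb Selenof (0.95) and to Pou3f1 Scaper (0.88). To Pou3f2 it was Boc (0.95) and to Pou3f3 Ptpn22 (0.97).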

How the data were processed

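Calling-card insertions were analysed from 47 deposited tables that stand for 194 sequencing samples. Each line of a table is 1 insertion with its position, strand and barcode, and the deposited value in it is a read count; the authors combined the pieces of a cortex, or the 3 N2a experiments, into 1 table, per the labels' design text. The submitters' processing notes name Novoalign, Bowtie2 and the build mm10, with no versions, and the filters used are not given in the sources used here. Read counts were not used, and each line counted once. BrokenHeart positions were moved by 1 base, since 45.2% of those of mouse 1 then fell on a position of C57bl6J mouse 2.

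Insertions were counted in gene bodies with 10 kb on either side for all 21631 protein-coding loci of the RefSeq gene table for GRCm38, and divided by each table's total for levels per 1000000 (IPM). Pairs of groups were tested with edgeR 4.0.16 (quasi-likelihood test, TMM scaling, low counts removed with filterByExpr) in R 4.3.3, with Benjamini-Hochberg adjustment over all loci tested and a threshold of 0.05; the interaction used 4 groups in 1 model. Alternatives were scaling by total insertions, DESeq2 1.42.0, no filter, positions counted once a mouse, gene bodies without flanks, the replicate number as a block and each mouse left out. Shares within 1 kb of a start were compared with exact two-sided permutation tests over all splits of the mice (Python 3.11.15 with numpy 2.4.6). Wilson intervals were computed with scipy 1.17.1. The fits were tested on simulated data. Motifs were searched as letters on both strands.

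The members, the lists of other upper-layer, deep-layer, related, interneuron, excitatory, astrocyte, oligodendrocyte, and microglia and endothelium genes, and the tests were chosen with earlier results of these data known, and lists are described by counts and medians only. All 6 members were named in each comparison they were tested in, and from the cortical and family lists at most the 3 called genes with the largest change; 1 gene of these lists is counted in them but not reported here by name.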

Additional observations from a re-analysis of the deposited data

Results flagged for a closer look

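Within groups of 4 to 10 mice, 12 of 68 sets of values had 1 mouse far from the others by Dixon's criterion. For independent and normally spread values, chance alone gives about 1 such set in 20. The present values include zeros and come from the same mice over several loci, so that rate does not apply to them. Several of the 12 sets came from the same mice. Syn1Cre mouse 5 was the highest of its group for Pou3f2 (690.5 IPM, insertions per 1000000) and Pou3f3 (517), and it also had the most insertions at the astrocyte loci of that group (1954 IPM). Syn1CreNeg mouse 2, the smallest table of its group, was the highest for Cux2 (144) and Pou3f3 (697). GFAPCreNeg mouse 6, also the smallest table of its group, was the highest for Pou3f2 (764) and Pou3f3 (572), and its astrocyte loci held 3062 IPM. Syn1Cre_SP1_P28 mouse 4, with 577609 insertions the largest table of its group, was the lowest for Rorb (448) and Pou3f2 (259.7), and its astrocyte loci held 980 IPM against 1785 to 2181 in the other 3 mice. The part of astrocyte loci and of table size in these values was not tested.

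The remaining sets rest on few insertions. Rbp4Cre_TRAP mouse 1 held the 1 Pou3f1 insertion of its group (17.5 IPM). The share of insertions within 1 kb of the start was above 0 in 1 mouse only for Cux1 in GFAPCreNeg (mouse 2, 1.28%), for Cux2 in Rbp4Cre_TRAP (mouse 2, 16.7%) and for Pou3f2 in Rbp4Cre_TRAP (mouse 4, 6.67%).

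Cux2's change with Cre differed between the Syn1Cre and GFAPCre lines by 1.03 on the log2 scale (interaction term, adjusted p = 0.00599, edgeR).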

How the results depend on the processing

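When 1 mouse was left out, 562 of the members' log2 differences kept their direction and side of the threshold, 14 lost their call, 16 gained one and 12 turned, and under the other alternatives the counts were 276, 12, 16 and 31. The called-locus counts moved by over 1.5 times with each position counted once a mouse in Syn1Cre over GFAPCre (134), Syn1Cre over Syn1CreNeg (1769), GFAPCre over GFAPCreNeg (471), SP1 P28 over Syn1Cre (3863), SP1 P28 over P10 (212), Rbp4Cre_TRAP over Syn1Cre (592) and GFAPCre (937), Frontflip over GFAPCre (305) and the interaction (31). Gene bodies alone gave 2839 and 2280 for SP1 P28 and P10 over Syn1Cre, 196 between the ages, 125 and 383 for Rbp4Cre_TRAP over Syn1Cre and GFAPCre, and 89 for Frontflip. No filter gave 759, 1135, 1353 and 307 for Rbp4Cre_TRAP over Syn1Cre and GFAPCre, BrokenHeart and Frontflip. Total insertions gave 129 for Rbp4Cre_TRAP over Syn1Cre, DESeq2 gave 167 between the SP1 ages, mice 1 to 3 of Syn1Cre alone gave 1634 against GFAPCre, and mice of shared pools gave 37 in the GFAP line. Leaving out 1 mouse gave 128 to 835 called loci for Syn1Cre over GFAPCre, 2053 to 3243 and 384 to 1115 for the Syn1 and GFAP lines over Neg, 5625 to 6575 and 4136 to 5501 for SP1 P28 and P10 over Syn1Cre, 7 to 539 between the ages, 89 to 465 and 426 to 684 for Rbp4Cre_TRAP over Syn1Cre and GFAPCre, 348 to 896 for BrokenHeart, 16 to 402 for Frontflip and 43 to 400 for the interaction.

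Directions of the members that turned were all of differences not called at first, other than Cux1 at SP1 P28, Pou3f3 at P10, and Pou3f2 in BrokenHeart and Frontflip, and their causes were not tested. With positions counted once, Cux1 in the GFAP line was 0.019, Cux2, Pou3f2 and Pou3f3 at P28 were 0.12, 0.58 and 0.88, Pou3f2 and Pou3f3 at P10 were 0.44 and 0.74, Pou3f3 in Rbp4Cre_TRAP over Syn1Cre was 1.31, Pou3f2 and Pou3f3 in it over GFAPCre were 1.13 and 1.23, and Pou3f2 in BrokenHeart was 0.53. Under total insertions, Cux1, Cux2, Pou3f2 and Pou3f3 at P28 were 0.0055, 0.44, 0.34 and 0.37, Cux1 and Pou3f1 at P10 were 0.25 and 0.33, and Pou3f3 in Rbp4Cre_TRAP over Syn1Cre was 0.10, with Pou3f2 and Pou3f3 over GFAPCre at 0.11 and 0.069. In gene bodies, Cux2 at P28 was 0.21, Cux1 at P10 was 0.23, Pou3f2 in Rbp4Cre_TRAP over GFAPCre was 0.013 and Pou3f2 in Frontflip was -0.15. Without a filter, Rorb and Pou3f2 in Rbp4Cre_TRAP over Syn1Cre were both -0.0044 and Rorb over GFAPCre was -0.15. In mice of shared pools, Cux1 in the GFAP line was 0.16. Leaving out 1 mouse, the ranges that crossed 0 were -0.091 to 0.043 for Cux1 in the GFAP line, -0.079 to 0.016, -0.28 to 0.13 and -0.22 to 0.078 for Cux2, Pou3f2 and Pou3f3 at P28, -0.29 to 0.17 for Cux1 between the SP1 ages and -0.054 to 0.19 for Rorb in Rbp4Cre_TRAP over GFAPCre.

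The replicate numbers did not pair the mice, with at most 2 of 6 same-numbered pairs correlated over 0.1. With the replicate number as a block, called loci were 124 for Rbp4Cre_TRAP over Syn1Cre, 309 for Frontflip and 191 for Syn1Cre over GFAPCre, and Pou3f2 and Pou3f3 turned to 0.16 and 0.047 at P28 and Pou3f3 to 0.17 and 0.0035 in Rbp4Cre_TRAP over Syn1Cre and GFAPCre. The block gave calls to Pou3f2 in Rbp4Cre_TRAP over Syn1Cre (0.72, adjusted p = 0.0457, edgeR), Rorb in Frontflip (0.55, adjusted p = 0.00200) and Pou3f2 and Pou3f3 between the SP1 ages (0.93 and 0.74, adjusted p = 0.000176 and 0.00153).

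The difference in start share by positions was 1.02 and 4.70 points for Rorb and 2.66 and 7.25 for Pou3f3 at P28 and P10, none called. Within 2 kb, Cux1 at P10 was -2.04. Without 1 mouse, the shares differed at P28 by 2.88 to 3.97 points for Rorb, 2.36 to 3.99 for Pou3f3, 0.25 to 1.39 for Pou3f2 and -0.71 to 0.80 for Cux1, and at P10 by 7.18 to 10.1 for Rorb, 5.53 to 9.36 for Pou3f3, -0.48 to 2.16 for Pou3f2, -1.59 to 1.35 for Cux1 and -42.4 to 7.62 for Pou3f1. The called shares of Rorb and Pou3f3 were lost in 3 of 4 such tests each at P28 and in 3 of 3 each at P10 (adjusted p = 0.0714 to 0.107, exact permutation). The small groups left in these tests limit how low their p can go. Loci with few insertions, Pou3f1 above all, could not show a difference at this depth. The Pou3f1 share was measured from either end of the gene, since no start was annotated for it.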

Other observations

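The strand of insertions was uneven at some members. At Rorb, 32.9% of 3827 insertions in Syn1Cre lay on the plus strand (95% Wilson interval 31.4 to 34.4), 33.6% in GFAPCre (32.1 to 35.1), 38.6% in Syn1CreNeg (36.4 to 40.8) and 22.4% in Frontflip_GFAPCre (19.1 to 26.1), while BrokenHeart, read from DNA, had 51.9% of 54 (38.9 to 64.6). At Pou3f3 the plus strand held 60.9% in Syn1Cre (58.7 to 63.1) and at Pou3f2 41.2% (38.9 to 43.4). Rorb and Pou3f2 lie on the minus strand and Pou3f3 on the plus strand. Cux1 and Cux2 also lie on the minus strand. Their plus-strand shares in Syn1Cre were 63.6% (60.6 to 66.5) and 47.8% (45.0 to 50.7). Pou3f1, whose strand was not given here, had 83.1% of 65 (72.2 to 90.3). The uneven strand therefore did not follow the strand of the gene at every member. These are pooled shares over the mice of a group, and insertions at a shared position are not independent.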
